A study of Mus musculus with 16 samples.

Results

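Expression of Trp53, the gene of the transcription factor p53, and of 9 genes that p53 is known to activate directly was described in healing and uninjured flexor tendons of C57BL/6J (C57) and MRL/MpJ (MRL) mice. The 10 genes are Trp53, Mdm2, Ccng1, Sesn2, Gadd45a, Bax, Bbc3, Pmaip1, Trp53inp1 and Zmat3. They were chosen by their symbols, and all 10 were found among the 49568 genes of the count table. RNA-seq was available for 16 single tendons in 4 groups of 4, injured and uninjured tendons of each strain. The injured groups had a partial cut across about 50% of the deep digital flexor tendon of digit 3 of the hind paw and were taken 7 days later. The uninjured groups are labelled so, although the treatment text given with them is that of the injured groups. All mice were males of 9 to 11 weeks, each tendon came from its own animal, and no tissue around the tendon, sheath included, had been removed. The study asked how tendon repair differs between C57 mice and MRL mice, a strain known for scarless closure of ear wounds.

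p53 is a sequence-specific transcription factor that is held at a low protein level in unstressed cells, because MDM2, itself a p53 target, marks it for degradation. DNA damage and other stresses block that degradation, and p53 then raises genes that slow the cell cycle, repair DNA, limit oxidative stress or start apoptosis through mitochondria. Control of p53 is therefore largely at the level of the protein, which RNA-seq does not measure. In healing tendon, cells divide and inflammatory cells enter and die, both of which are settings in which p53 targets are studied.

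p53 binds DNA as a tetramer at pairs of 10-base half-sites. Promoter windows of 300 bases, from 250 bases before to 50 bases after the RefSeq transcription start (GRCm38.p6), were given for 7 of the 10 genes, and none were given for Pmaip1, Trp53inp1 and Zmat3. The degenerate p53 half-site consensus, which reads the same on both strands, was matched in the windows of 5 genes, Trp53, Mdm2, Ccng1, Gadd45a and Bax, and in those of neither Sesn2 nor Bbc3. Of all 32851 windows of the same length, 8.36% held a match. A match describes the letters only and was not measured as binding. For 4 of these genes, those in which the half-site lies outside annotated exons, 100 bases of RefSeq sequence are given here, because they show which letters of each promoter match what p53 is known to bind. The half-site is in capitals. It begins 75 bases before the start in Trp53 (chr11:69580256-69580355, plus strand), 186 bases before it in Mdm2 (chr10:117710890-117710989, minus strand), 185 bases before it in Ccng1 (chr11:40755417-40755516, minus strand) and 201 bases before it in Bax (chr7:45467045-45467144, minus strand).
Trp53: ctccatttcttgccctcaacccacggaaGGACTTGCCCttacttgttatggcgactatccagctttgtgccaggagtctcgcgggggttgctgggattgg
Mdm2: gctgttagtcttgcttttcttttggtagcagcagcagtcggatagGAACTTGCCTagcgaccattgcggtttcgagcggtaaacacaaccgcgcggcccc
Ccng1: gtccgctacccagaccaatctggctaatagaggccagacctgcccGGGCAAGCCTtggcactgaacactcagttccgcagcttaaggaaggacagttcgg
Bax: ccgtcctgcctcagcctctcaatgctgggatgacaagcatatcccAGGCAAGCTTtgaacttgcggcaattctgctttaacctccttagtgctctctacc

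By the GENCODE M21 annotation of GRCm38, Trp53 lies on chromosome 11 from 69580359 to 69591873 on the plus strand and Ccng1 on the same chromosome from 40748552 to 40755311 on the minus strand. Mdm2 lies on chromosome 10 (117688875 to 117710758), Gadd45a on chromosome 6 (67035096 to 67037457) and Bax on chromosome 7 (45461697 to 45466898), all 3 on the minus strand. Bbc3 is also on chromosome 7 (16308393 to 16318205, plus strand). Sesn2 (132492032 to 132510501, minus strand) and Trp53inp1 (11156431 to 11174379, plus strand) are on chromosome 4, Zmat3 is on chromosome 3 (32334792 to 32366014, minus strand) and Pmaip1 is on chromosome 18. Counts were taken over whole genes. Gadd45a shares 337 exonic bases (19.1% of its exons) with E230016M11Rik on the opposite strand, and Bax shares 192 (12.2%) with Gm45808 on the same strand. Since the strand setting of the counting is not given in the sources used here, the counts of Gadd45a are uncertain to that extent. No strand setting separates Bax from Gm45808. Whether the annotation used in counting held Gm45808 is not given, so the counts of Bax are uncertain to that extent too.

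The total count per library was between 12552424 and 23741648 (median 15520024.5). Injured MRL libraries were the deepest, with a median of 23460742.5 against 14560249.5 in injured C57. A gene with 3 counts, taken as the floor of detection, had between 0.128 and 0.237 CPM (the count scaled to the library's TMM-adjusted size). Tenocyte markers took between 0.952% and 5.58% of the counts, with 1 of the 8 at 0 in C57 uninjured replicate 1. The lowest share was in the library labelled C57 uninjured replicate 4. Markers of neutrophils, lymphocytes and endothelium took at most 0.0138%, 0.000483% and 0.0133%. Genes that mark the strain, chosen on the injured libraries alone (at least 20 counts in all 4 libraries of one strain and at most 2 in each of the other), were then counted in the uninjured libraries. Of 20 C57-marking and 41 MRL-marking genes, the library labelled C57 uninjured replicate 4 had 4 and 40 with at least 5 counts, and the library labelled MRL uninjured replicate 4 had 15 and 1. Both libraries therefore go against their strain labels, whereas the other 6 uninjured libraries do not. They were kept in the groups their labels give, and many values are also given without them. The library labelled C57 uninjured replicate 4 also carried 6.51% of its counts on 12 epidermal markers, none of them at 0, against at most 0.0791% elsewhere. BI-181, an injured C57 tendon, carried 7.40% on 12 skeletal muscle markers, none of them at 0, against 0.235% in BI-183 and at most 0.00176% in the other 14 libraries.

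**Figure D1:**
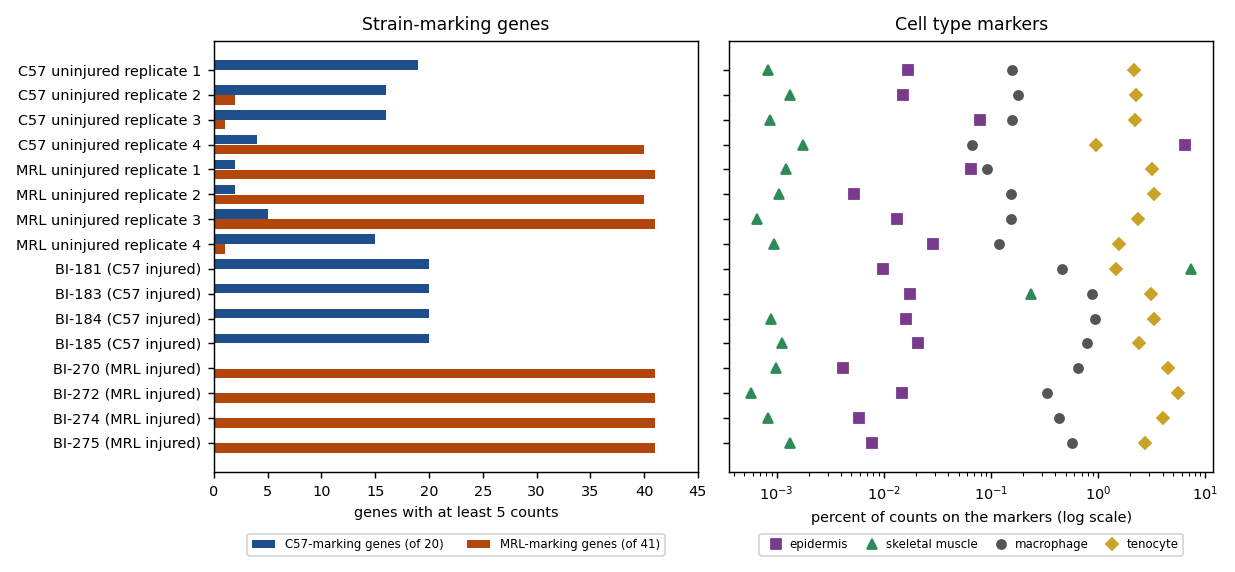
The left panel plots, for each of the 16 libraries, how many strain-marking genes had at least 5 counts. Both libraries labelled uninjured replicate 4 show the pattern of the other strain (4 C57-marking and 40 MRL-marking genes, and 15 and 1). The right panel plots the percent of counts on 4 sets of cell type markers on a log scale, where epidermal markers stand apart in the library labelled C57 uninjured replicate 4 (6.51%) and skeletal muscle markers in BI-181 (7.40%).

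In injured against uninjured C57 tendons, none of the 10 genes passed edgeR's quasi-likelihood test at an adjusted p under 0.05. Of all 14424 genes tested, 1.13% did. Gadd45a and Pmaip1 had an unadjusted p under 0.05, but Pmaip1 passed the filter on low counts only through the injured libraries. Its p is therefore no support. DESeq2 called none of the 10 either, beside 6.25% of all genes. In injured against uninjured MRL tendons, 9 of the 10 genes passed the filter on low counts and 2 of them, Trp53 and Bax, were higher after injury. There, 11.1% of the 14274 genes tested were called, with 7.73% higher and 3.36% lower. DESeq2 called the same 2 of the 10 there, beside 17.2% of all genes. Neither Trp53 nor Bax reached the study's fold criterion for differentially expressed genes (DEG), an absolute log2 fold change over 1, which 7.41% of all genes met together with the adjusted p. Without the libraries labelled uninjured replicate 4, C57 again had none of the 10 called (6.26% of all genes), and MRL had Mdm2 and Bax (8.12% of all genes). As a description, the median log2 fold change of those tested was 0.01 (C57) and 0.22 (MRL), beside -0.05 and -0.03 over all genes. Leaving out the libraries labelled replicate 4 gave 0.18 (C57) and 0.44 (MRL), beside -0.0064 and -0.0085 over all genes. Over the genes that pass the filter on the uninjured libraries alone, which leaves out Pmaip1, the C57 values were 0.0046 and 0.16.

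**Figure D2:**
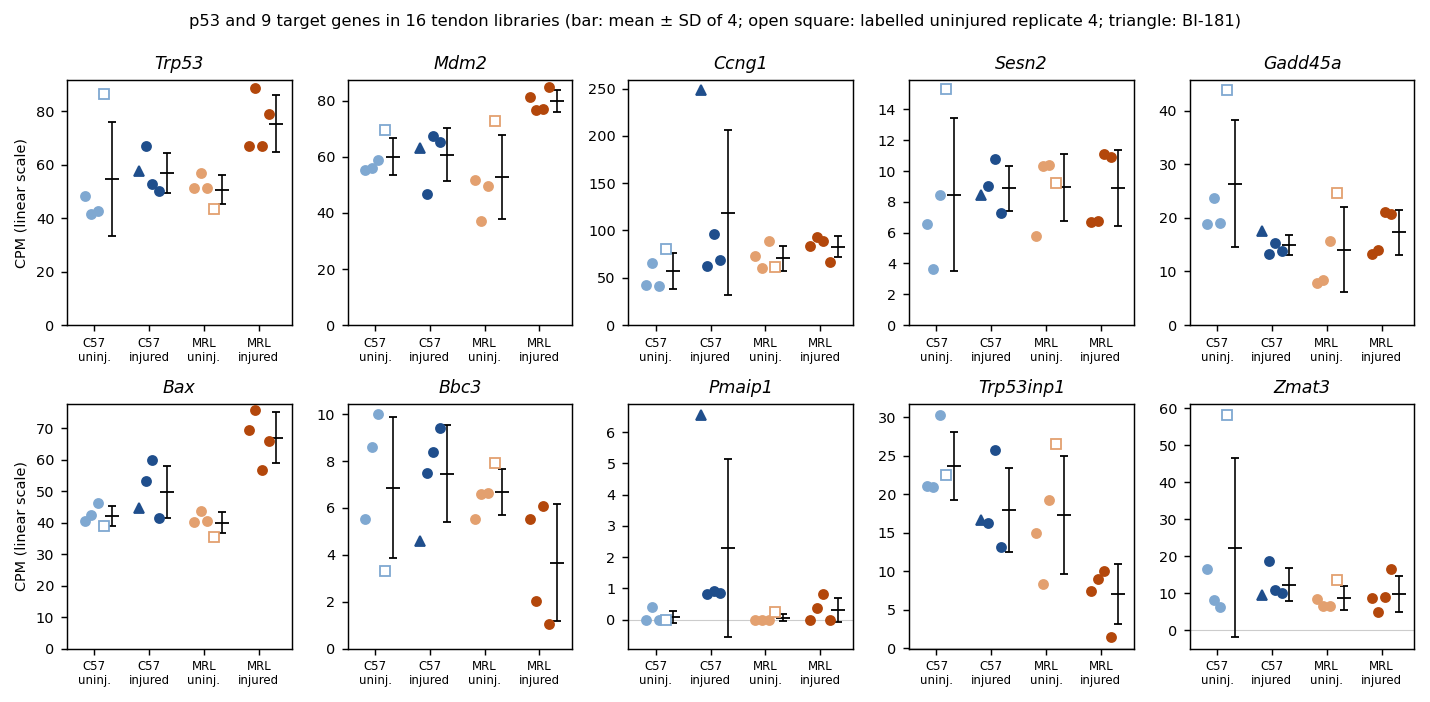
CPM on a linear scale of each of the 10 genes in every library, by group, with the mean ± SD of the 4 libraries beside them. Open squares are the libraries labelled uninjured replicate 4 and triangles are BI-181. In Trp53, Mdm2 and Bax the 4 injured MRL libraries lie above the 4 uninjured MRL libraries, and Ccng1 and Pmaip1 have their highest value in BI-181 (248 and 6.55 CPM).

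Trp53 encodes p53 itself. In uninjured C57 tendons it had 48.3, 41.5, 42.5 and 86.5 CPM in replicates 1 to 4, and in injured C57 tendons 57.8 (BI-181), 67.0 (BI-183), 52.9 (BI-184) and 50.1 CPM (BI-185), the order kept for the genes that follow. The highest of the 8 C57 values belonged to the uninjured library that goes against its strain label, and without it the injured values all lay above the uninjured ones. Trp53 had 51.3, 56.8, 51.4 and 43.3 CPM in uninjured MRL replicates 1 to 4 and 67.0 (BI-270), 88.8 (BI-272), 67.1 (BI-274) and 78.8 CPM (BI-275) in injured MRL tendons. All injured MRL tendons exceeded all uninjured ones. Trp53 thus had a log2 fold change of 0.00 in C57 (95% CI -0.60 to 0.61, edgeR adjusted p = 0.995) and 0.56 in MRL (95% CI 0.21 to 0.92, 1.48-fold, edgeR adjusted p = 0.047). Without the libraries labelled uninjured replicate 4, it was 0.32 in C57 (95% CI -0.05 to 0.70, edgeR adjusted p = 0.306) and 0.51 in MRL (95% CI 0.14 to 0.88, edgeR adjusted p = 0.0952). The call in MRL was thus lost without that library, and it was lost in 7 of the 8 fits that leave out 1 MRL library, with an adjusted p between 0.0444 and 0.125.

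Mdm2 encodes the ubiquitin ligase that degrades p53 and closes the feedback loop. Uninjured C57 tendons had 55.4, 56.1, 58.8 and 69.6 CPM and injured ones 63.3, 46.7, 67.4 and 65.3 CPM, which overlap. In MRL, uninjured tendons had 51.8, 37.0, 49.7 and 72.7 CPM and injured tendons 81.5, 76.6, 76.9 and 84.9 CPM. The injured MRL values were all higher, and the uninjured value nearest to them came from the library labelled replicate 4. The log2 fold change was -0.03 in C57 (95% CI -0.44 to 0.38, edgeR adjusted p = 0.953), a value too close to 0 to keep its sign under other scalings. In MRL it was 0.59 (95% CI 0.14 to 1.03, edgeR adjusted p = 0.0881). With the library labelled MRL uninjured replicate 4 left out, it was 0.80 (95% CI 0.43 to 1.17, 1.74-fold, edgeR adjusted p = 0.0231), and Mdm2 was then called.

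The genes of growth arrest and stress defence, Ccng1, Sesn2 and Gadd45a, passed the test in neither strain. Ccng1 encodes cyclin G1, which binds a phosphatase subunit that acts on MDM2. It had 42.3, 66.1, 40.9 and 80.3 CPM in uninjured C57 tendons and 248, 62.2, 96.0 and 68.3 CPM in injured ones. The value of 248 CPM belonged to BI-181, the library with skeletal muscle counts, whose part in it was not tested. The log2 fold change in C57 was 1.01 (95% CI -0.06 to 2.09, edgeR adjusted p = 0.356), and it was 0.37 without BI-181 (edgeR adjusted p = 0.668). With both BI-181 and the library labelled C57 uninjured replicate 4 left out it was 0.60 (edgeR adjusted p = 0.187). In MRL, the uninjured tendons had 73.2, 60.2, 88.5 and 60.9 CPM and the injured ones 83.1, 93.5, 88.5 and 66.9 CPM. These overlap, with a log2 fold change of 0.22 (95% CI -0.16 to 0.59, edgeR adjusted p = 0.436).

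Sesn2 encodes sestrin 2, which restrains growth signalling under stress. No injury effect was called. Uninjured C57 tendons had 6.54, 3.61, 8.42 and 15.3 CPM and injured ones 8.45, 9.02, 10.8 and 7.26 CPM. In MRL the values were 5.78, 10.3, 10.4 and 9.24 CPM before and 6.72, 6.75, 11.1 and 10.9 CPM after injury. The groups overlapped in both strains, with log2 fold changes of 0.01 in C57 (95% CI -1.02 to 1.05, edgeR adjusted p = 0.993) and -0.02 in MRL (95% CI -0.79 to 0.74, edgeR adjusted p = 0.976). These intervals leave room for a change of either sign. The highest C57 value, 15.3 CPM, was in the library labelled uninjured replicate 4. Without that library the C57 log2 fold change was 0.47, which was not called either.

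Gadd45a encodes a small protein of DNA repair and stress kinase signalling. In C57 it had 18.9, 23.8, 19.1 and 43.8 CPM in uninjured and 17.5, 13.3, 15.3 and 13.8 CPM in injured tendons. The injured values all lay below the uninjured ones, as they did without the library labelled replicate 4. The log2 fold change was -0.87 (95% CI -1.59 to -0.14, unadjusted p = 0.024, edgeR adjusted p = 0.251), and -0.50 (95% CI -1.01 to 0.01, edgeR adjusted p = 0.243) without that library. MRL tendons had 7.81, 8.40, 15.6 and 24.6 CPM when uninjured and 13.2, 14.0, 21.1 and 20.7 CPM when injured, which overlap. In MRL the log2 fold change was 0.28 (95% CI -0.58 to 1.14, edgeR adjusted p = 0.685), and 0.71 (95% CI -0.07 to 1.48, edgeR adjusted p = 0.234) without the library labelled replicate 4.

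Of the 3 genes that promote apoptosis at mitochondria, Bax rose in MRL, Bbc3 did not pass the test in either strain and Pmaip1 did not pass it in C57, where alone it could be tested. Bax encodes the pore-forming BCL-2 family member that opens the outer mitochondrial membrane. MRL tendons had 40.2, 43.7, 40.4 and 35.6 CPM when uninjured and 69.6, 75.8, 56.6 and 66.0 CPM when injured, with no overlap and a wide gap between the groups. In C57 the values were 40.4, 42.4, 46.3 and 38.9 CPM before and 44.6, 53.3, 59.9 and 41.6 CPM after injury, which overlap. The log2 fold change was 0.73 in MRL (95% CI 0.40 to 1.07, 1.66-fold, edgeR adjusted p = 0.0147) and 0.19 in C57 (95% CI -0.20 to 0.59, edgeR adjusted p = 0.644). Without the libraries labelled uninjured replicate 4, it was 0.70 in MRL (95% CI 0.33 to 1.06, edgeR adjusted p = 0.0354) and 0.16 in C57 (edgeR adjusted p = 0.648). Bax in MRL was the one call among the 10 genes that held in all 8 fits that leave out 1 library, with an adjusted p between 0.0119 and 0.0495.

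Bbc3 encodes PUMA, which activates BAX and binds its inhibitors. It had 5.54, 8.58, 10 and 3.32 CPM in uninjured and 4.59, 7.48, 8.38 and 9.40 CPM in injured C57 tendons. MRL tendons had 5.51, 6.60, 6.65 and 7.90 CPM before and 5.53, 2.04, 6.08 and 1.04 CPM after injury. A pair of injured MRL libraries, BI-272 and BI-275, lay far below all other libraries but the one labelled C57 uninjured replicate 4, while the other pair lay within the uninjured range. Its log2 fold change was 0.06 in C57 (95% CI -0.94 to 1.07, edgeR adjusted p = 0.964) and -0.88 in MRL (95% CI -2.12 to 0.36, edgeR adjusted p = 0.334). The MRL value was -0.58 without BI-275.

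Pmaip1 encodes NOXA, an inhibitor of the survival protein MCL-1, and was near the floor of detection in most libraries. Uninjured C57 tendons had 0, 6, 0 and 0 counts and uninjured MRL tendons 0, 0, 0 and 3. Injured C57 tendons had 107, 13, 14 and 12 counts, equal to 6.55, 0.803, 0.902 and 0.854 CPM, and injured MRL tendons had 0, 8, 18 and 0 counts. The gene was thus detected above the floor in all 4 injured C57 libraries, with its highest count in BI-181, and in part of the injured MRL libraries. In C57, Pmaip1 passed the filter on low counts only through the injured libraries, so its p and interval there are no support. The fitted log2 fold change in C57 was 4.41 (95% CI 0.99 to 7.83, unadjusted p = 0.0171, edgeR adjusted p = 0.221), with its size set by a reference group of few counts. With single libraries left out it ran from 2.99 (without BI-181) to 8.12 (without C57 uninjured replicate 2, the one with counts). Leaving out BI-181 and the library labelled C57 uninjured replicate 4 gave 2.61 (95% CI -0.50 to 5.71, edgeR adjusted p = 0.31). Pmaip1 did not pass the filter in MRL and was not tested there.

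Trp53inp1 and Zmat3 were called in neither strain. Trp53inp1 encodes a nuclear protein that helps p53 activate apoptotic targets and takes part in autophagy. It had 21.1, 21.0, 30.3 and 22.5 CPM in uninjured and 16.7, 16.2, 25.8 and 13.2 CPM in injured C57 tendons. In MRL it had 15.0, 8.33, 19.3 and 26.5 CPM before and 7.48, 9.01, 10.1 and 1.42 CPM after injury. The injured MRL values were low, but uninjured replicate 2 lay among them. Its log2 fold change was -0.45 in C57 (95% CI -1.06 to 0.16, edgeR adjusted p = 0.464) and -1.32 in MRL (95% CI -2.53 to -0.12, unadjusted p = 0.0337, edgeR adjusted p = 0.141). Without the library labelled MRL uninjured replicate 4, the MRL value was -1.01 (95% CI -2.33 to 0.30, edgeR adjusted p = 0.316). With BI-275 alone left out it was -0.99.

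Zmat3 encodes an RNA-binding zinc finger protein induced by p53. The 4 uninjured C57 tendons had 16.5, 8.13, 6.35 and 58.2 CPM and the injured ones 9.49, 18.8, 10.8 and 10 CPM. The value of 58.2 CPM, over 3 times that of any other library, was in the library labelled C57 uninjured replicate 4, where epidermal markers were high, and their part in it was not tested. In C57 the log2 fold change was -0.92 (95% CI -2.44 to 0.60, edgeR adjusted p = 0.558) and turned to 0.20 (95% CI -0.72 to 1.12, edgeR adjusted p = 0.822) without that library. MRL tendons had 8.47, 6.53, 6.42 and 13.4 CPM before and 8.59, 4.76, 8.83 and 16.5 CPM after injury. Those values overlap, with a log2 fold change of 0.15 (95% CI -0.82 to 1.12, edgeR adjusted p = 0.862).

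**Figure D3:**
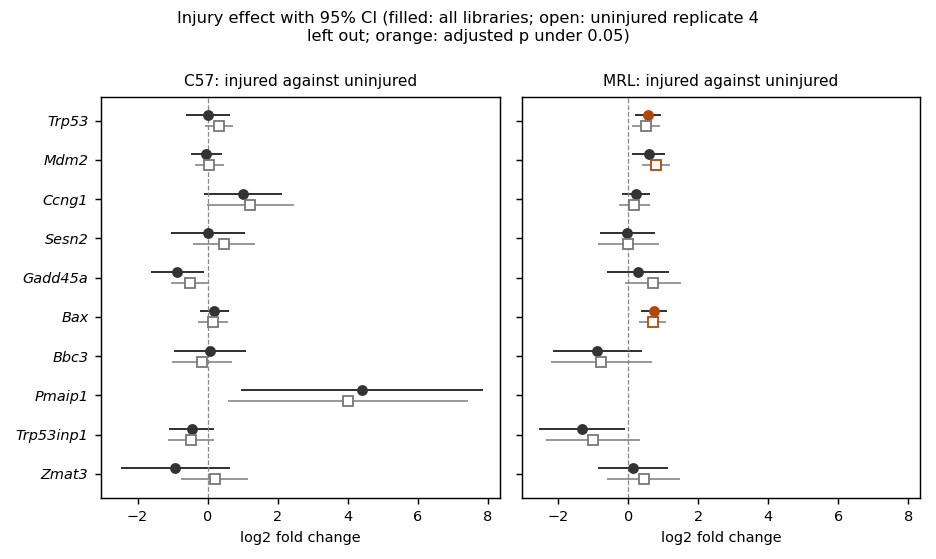
Log2 fold change of injured against uninjured tendons in C57 (left) and MRL (right), on 1 scale, with bars for the 95% CI. Filled circles use all libraries, open squares leave out the library labelled uninjured replicate 4, and orange marks an adjusted p under 0.05. Orange points are found in MRL only, for Bax under both, for Trp53 with all libraries (0.56) and for Mdm2 without replicate 4 (0.80).

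Groups that did not overlap were counted as a description. In C57, 2 of the 10 genes had no overlap between injured and uninjured libraries, Gadd45a (lower) and Pmaip1 (higher), beside 11.6% of all genes tested. Pmaip1 passed the filter on low counts only through the injured libraries, so its lack of overlap is no support. In MRL, 3 of the 9 genes tested had none, Trp53, Mdm2 and Bax, all higher, against 22.9% of all genes. With the libraries labelled replicate 4 left out, the same 3 of 9 had none in MRL (28.6% of all genes), and in C57 Trp53 (higher) joined Gadd45a and Pmaip1, making 3 of 10 (21.8% of all genes). Other measures moved with the injury. Macrophage markers took 0.092% to 0.154% of counts in uninjured MRL and 0.331% to 0.649% in injured MRL libraries, with none of the 10 markers at 0, and in C57 0.0664% to 0.177% and 0.465% to 0.929%, with 1 marker at 0 in the library labelled C57 uninjured replicate 4. The 5 endothelial markers took 0.00136% to 0.00742% in uninjured and 0.00904% to 0.0133% in injured C57 libraries, with no overlap, and 0% to 0.00541% and 8.42e-06% to 0.00235% in MRL, which overlap. The 10 proliferation genes took 0.000742% to 0.00191% of counts in uninjured MRL and 0.0244% to 0.0863% in injured MRL libraries, and up to 4 of them were at 0 in an uninjured MRL library. In C57 these genes took 0.00105% to 0.0246% in uninjured libraries, the highest in the one labelled replicate 4, and 0.00765% to 0.0473% in injured ones. Of these 10, 9 in MRL and 9 in C57 would not pass the filter on low counts on the uninjured libraries alone, so their calls after injury are no support and the shares are given as a description. Their part in the changes of Trp53 and Bax was not tested. In whole tendons, a change in the number of cells of a type and in the RNA per cell cannot be told apart.

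The strains were compared before injury, after injury and in their response. Before injury, edgeR called 0 of the 9 genes tested and 0% of all 14055 genes, where 1106 had an unadjusted p under 0.05 and DESeq2 called 126 of all genes (0.784%) and none of the 10. The groups overlapped for all 10 genes (5.02% of all genes had no overlap). Of the cell type markers, all 8 of tenocytes were higher and all 5 of endothelium lower in MRL, none called. Macrophage markers went both ways, with 5 higher and 5 lower. The part of these markers in the differences was not tested. Without both libraries labelled replicate 4, 4 of the 10 genes did not overlap, beside 24.9% of all genes, with Trp53 higher and Mdm2, Gadd45a and Trp53inp1 lower in MRL. Zmat3 and Gadd45a had log2 fold changes in MRL against C57 of -1.39 (95% CI -2.93 to 0.15, edgeR adjusted p = 0.649) and -0.93 (95% CI -1.93 to 0.08, edgeR adjusted p = 0.638). In that setting edgeR called 5.5% of all genes and again none of the 10. Zmat3 then stood at -0.54 (edgeR adjusted p = 0.563), Gadd45a at -0.97 (95% CI -1.67 to -0.27, edgeR adjusted p = 0.122), Ccng1 at 0.56 (95% CI 0.08 to 1.04, edgeR adjusted p = 0.19) and Trp53inp1 at -0.77 (95% CI -1.49 to -0.05, edgeR adjusted p = 0.237). With single libraries left out, Gadd45a ran from -1.32 (without MRL uninjured replicate 4) to -0.55 (without C57 uninjured replicate 4). Zmat3 ran from -1.69 (without C57 uninjured replicate 3) to -0.25 (without C57 uninjured replicate 4).

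In injured MRL against injured C57 tendons, a comparison that the doubted uninjured libraries do not enter, none of the 10 genes was called by edgeR or DESeq2. Of all genes, edgeR called 3.87% (14626 tested) and DESeq2 10.8%. Trp53inp1, Bax and no other had an unadjusted p under 0.05. The groups did not overlap for 3 of the 10, against 16.1% of all genes. Trp53inp1 was lower in all 4 injured MRL tendons (log2 fold change -1.39, 95% CI -2.53 to -0.25, edgeR adjusted p = 0.159). Trp53 and Mdm2 were higher in all 4, in Trp53 by less than the printed precision (67.0 CPM in both BI-183 and BI-270), with log2 fold changes of 0.37 (95% CI -0.01 to 0.75, edgeR adjusted p = 0.247) and 0.36 (95% CI -0.01 to 0.73, edgeR adjusted p = 0.244). For Bax the groups overlapped, with a log2 fold change of 0.39 (95% CI 0.00 to 0.78, edgeR adjusted p = 0.231). Bbc3 stood at -1.05 (95% CI -2.32 to 0.21, edgeR adjusted p = 0.319) and Pmaip1 at -2.98 (95% CI -6.03 to 0.06, edgeR adjusted p = 0.245), which ran from -4.14 (without BI-274) to -1.54 (without BI-181). Ccng1 stood at -0.56 (edgeR adjusted p = 0.472) and, without BI-181, at 0.11. Cell type markers moved with this comparison. All 10 macrophage markers had a lower level in MRL (4 called), with 0.331% to 0.649% of counts against 0.465% to 0.929% in C57. All 5 endothelial markers did too (1 called), with 8.42e-06% to 0.00235% against 0.00904% to 0.0133%, and up to 4 of them at 0 in an injured MRL library. All 8 tenocyte markers had a higher level in MRL (1 called), with 2.72% to 5.58% against 1.47% to 3.33%. All 10 proliferation genes were higher in MRL, none called. The 4 skeletal muscle markers tested, which were high in BI-181, were all lower in MRL, none called. The part of these markers and genes in the differences was not tested.

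Whether the injury response itself differed between the strains was tested as an interaction over all 16 libraries. edgeR called 0 of the 10 genes and 0% of all 15947 genes, where 1939 had an unadjusted p under 0.05 and DESeq2 called 210 of all genes (1.34%) and none of the 10. The calls of Trp53 and Bax in MRL alone are therefore not shown to differ from C57. The difference in log2 fold change, MRL minus C57, was 0.51 in Trp53 (95% CI -0.15 to 1.16, edgeR adjusted p = 0.536), 0.49 in Bax (95% CI 0.02 to 0.95, edgeR adjusted p = 0.397) and 0.57 in Mdm2 (95% CI 0.00 to 1.14, edgeR adjusted p = 0.414). Gadd45a had 1.09 (95% CI -0.01 to 2.20, edgeR adjusted p = 0.418). Without the libraries labelled replicate 4, Trp53 was at 0.13 (95% CI -0.35 to 0.61, edgeR adjusted p = 0.893). In that fit, which again called 0% of all genes, Mdm2 had 0.69 (95% CI 0.19 to 1.18, unadjusted p = 0.00966, edgeR adjusted p = 0.328) and Gadd45a 1.15 (95% CI 0.29 to 2.01, unadjusted p = 0.0123, edgeR adjusted p = 0.344).

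**Figure D4:**
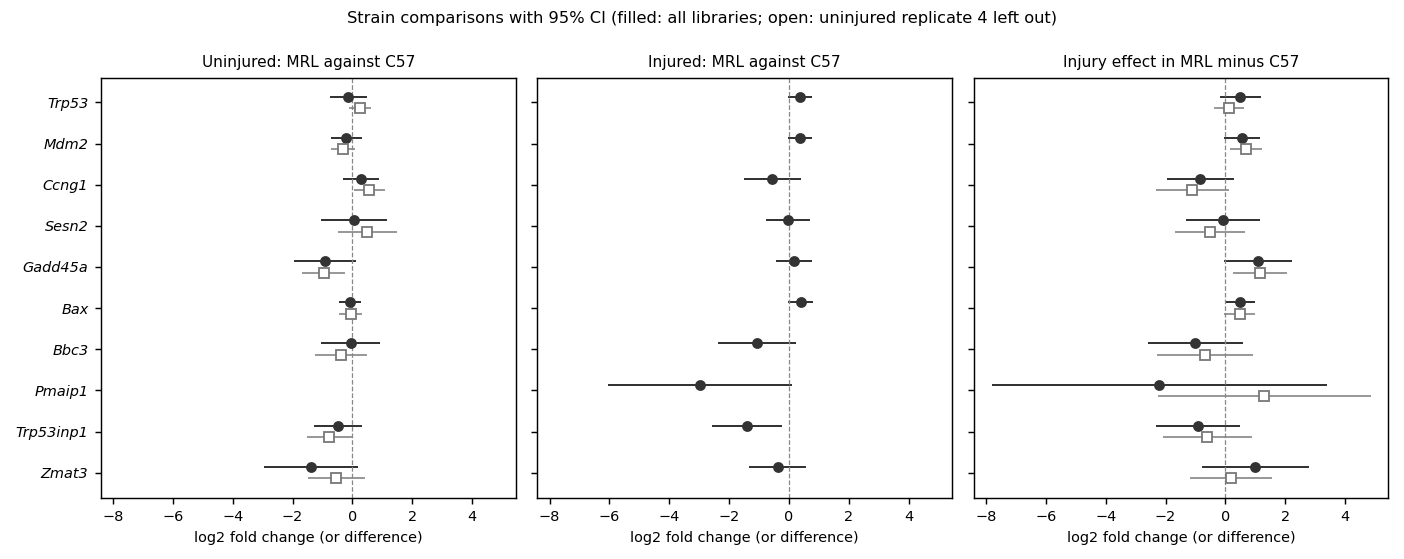
Log2 fold change of MRL against C57 tendons before injury (left) and after injury (middle), and the injury effect in MRL minus that in C57 (right), with bars for the 95% CI on 1 scale. Filled circles use all libraries and open squares leave out both libraries labelled uninjured replicate 4. No point passed the test, and the widest interval is that of Pmaip1.

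The rest of the pathway was read from 4 lists. Of 24 other p53 target genes, 1 was called in MRL and none in C57, beside 11.1% and 1.13% of all genes. It was Ddb2, a DNA damage recognition gene, with 13.6 ± 2.22 CPM (SD, n = 4) in uninjured and 5.06 ± 2.66 CPM in injured MRL tendons (log2 fold change -1.44, edgeR adjusted p = 0.0471). Without the library labelled replicate 4 its log2 fold change was -1.30 and it was not called (edgeR adjusted p = 0.11). Phlda3, an inhibitor of AKT signalling, was the one of the list called between uninjured strains without the libraries labelled replicate 4 (5.5% of all genes were), at 81.0 ± 6.80 CPM in MRL and 129 ± 12.3 CPM in C57 (SD, n = 3, log2 fold change -0.68, edgeR adjusted p = 0.0134), against 0.621 with all libraries. The list's median after injury was a log2 fold change of -0.26 (MRL) and -0.06 (C57), and -0.02 (MRL) and -0.10 (C57) without the libraries labelled replicate 4. Over the genes that pass the filter on the uninjured libraries alone it was -0.32 and -0.06, and -0.11 and -0.13 without those libraries. Cdkn1a, the cell cycle inhibitor p21 and the best known p53 target, had 377 ± 181 CPM in uninjured and 213 ± 26.1 CPM in injured C57 tendons (SD, n = 4). In MRL it had 257 ± 155 CPM and 204 ± 20.7 CPM. Neither difference passed the test, with log2 fold changes of -0.88 (edgeR adjusted p = 0.265) and -0.35 (edgeR adjusted p = 0.519). Without the libraries labelled replicate 4 the C57 value was -0.56 (edgeR adjusted p = 0.255) and the MRL value turned to 0.19 (edgeR adjusted p = 0.465).

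Among 22 regulators and relatives of p53, 20 were tested, and their median after injury was a log2 fold change of -0.21 (MRL) and -0.29 (C57), or -0.22 and -0.18 without the libraries labelled replicate 4. Over the genes that pass on the uninjured libraries alone the MRL values were -0.26 and -0.23. Usp7, a deubiquitinase of MDM2 and p53, was the one called in MRL (11.1% of all genes were), at 61.5 ± 4.45 CPM in uninjured and 40.0 ± 6.98 CPM in injured tendons (SD, n = 4, log2 fold change -0.63, edgeR adjusted p = 0.033). Without the library labelled replicate 4 its log2 fold change was -0.59 and it was not called (edgeR adjusted p = 0.0821). Rchy1, a ubiquitin ligase of p53, was the one of the list called between injured strains (3.87% of all genes were) and was lower in injured MRL than in injured C57 tendons (42.5 ± 2.53 against 67.2 ± 9.14 CPM, SD, n = 4, log2 fold change -0.70, edgeR adjusted p = 0.0473). Mdm4, the partner of MDM2 that blocks p53 activity, did not pass in either strain (log2 fold change -0.10 in C57, edgeR adjusted p = 0.93, and -0.17 in MRL, edgeR adjusted p = 0.669), nor without the libraries labelled replicate 4 (-0.36 and -0.26, edgeR adjusted p = 0.364 and 0.548). Without the libraries labelled replicate 4, Crebbp, a p53 acetyltransferase, was lower in injured C57 tendons (log2 fold change -0.59, edgeR adjusted p = 0.0475), against 0.131 with all libraries.

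The partners of BAX, PUMA and NOXA in the BCL-2 family had 14 of 15 genes tested in MRL, where 2 were higher after injury (7.73% of all genes were). None was called in C57 (1.13% of all genes were). The list's median log2 fold change was 0.47 in MRL and 0.10 in C57, but 4 of the tested genes in each strain would not pass the filter on the uninjured libraries alone, and without those 4 it was 0.17 in MRL and -0.04 in C57. Leaving out the libraries labelled replicate 4 gave 0.53 and 0.19 for all tested genes and 0.32 and 0.14 for those that pass on the uninjured libraries alone. Bid, which carries death receptor signals to BAX, had 1.39 ± 0.741 CPM in uninjured and 17.9 ± 4.23 CPM in injured MRL tendons (SD, n = 4, log2 fold change 3.67, edgeR adjusted p = 0.00172). In C57 it had 2.92 ± 2.09 and 21.5 ± 8.13 CPM (log2 fold change 2.82, edgeR adjusted p = 0.225), and it was called there without the library labelled replicate 4 (log2 fold change 2.41, edgeR adjusted p = 0.0122). Bcl2a1a, a survival gene of leukocytes with near-identical copies whose reads may be split, was at or below 0.0656 CPM in uninjured MRL tendons and at 1.22 to 9.57 CPM in injured ones (edgeR adjusted p = 0.00541, and 0.017 without the library labelled replicate 4). It passed the filter on low counts only through the injured libraries, so its call is no support. Bcl2a1d, another copy, was called in MRL without the library labelled replicate 4 (edgeR adjusted p = 0.0306), with the same limit, since it was at 0 in the 3 remaining uninjured MRL libraries and at 0.676 to 2.30 CPM in injured ones. Bcl2, the founding survival gene, did not pass, at 27.7 ± 11.4 and 19.5 ± 9.14 CPM in MRL (SD, n = 4, log2 fold change -0.53, edgeR adjusted p = 0.384) and a log2 fold change of -0.59 in C57 (edgeR adjusted p = 0.336). Leaving out the libraries labelled replicate 4 gave -0.19 (edgeR adjusted p = 0.796) and -0.53 (edgeR adjusted p = 0.307). None of the 6 paralogs of the described genes was called in any comparison, beside 0% to 11.1% of all genes. Their median after injury was -0.27 (MRL) and -0.09 (C57) on the log2 scale, or -0.05 and 0.17 without the libraries labelled replicate 4.

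**Figure D5:**
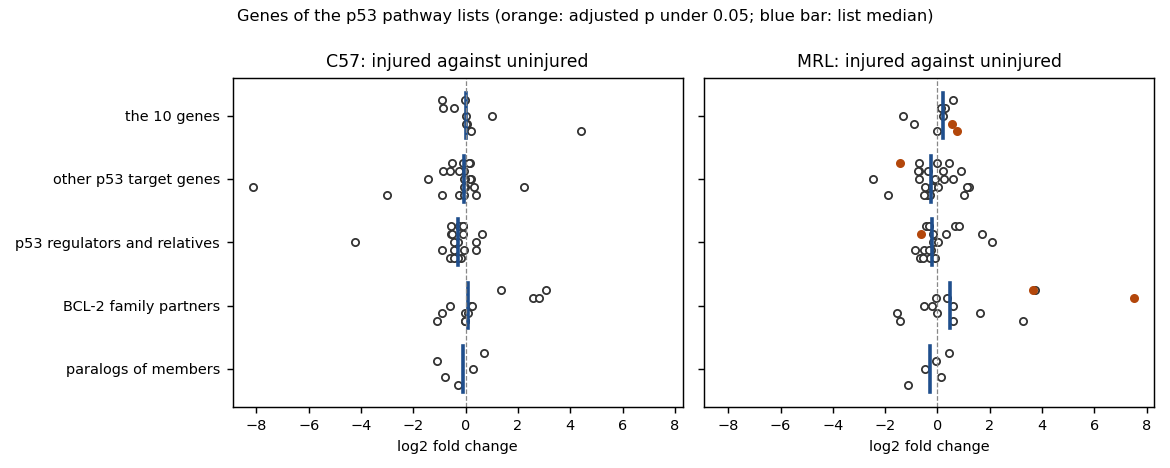
Log2 fold change after injury of each tested gene of the 10 and of 4 related lists in C57 (left) and MRL (right). Each circle is a gene, orange circles have an adjusted p under 0.05 and blue bars are list medians. The point farthest to the left in C57 is Perp (-8.13, adjusted p 0.215), an epidermal p53 target singled out after its values were seen, which had 9930 CPM in the library labelled C57 uninjured replicate 4 and at most 101 CPM in the other 3 uninjured C57 libraries (-2.02 without that library). No gene of C57 is orange.

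The level of each gene per kilobase of exon, averaged over the 16 libraries, placed Bax first at 31.5 ± 7.81 CPM per kb (SD, n = 16), ahead of Ccng1 at 23.5 ± 13.4, Trp53 at 14.7 ± 3.72, Mdm2 at 12.5 ± 2.65 and Gadd45a at 10.3 ± 4.74. Bbc3 (2.90 ± 1.19), Trp53inp1 (2.55 ± 1.23), Sesn2 (2.53 ± 0.790) and Zmat3 (1.16 ± 1.11) followed, and Pmaip1 was last at 0.25 ± 0.588. Neighbours in this order lay within the larger of their SDs of each other, except Gadd45a and Bbc3 and, further down, Sesn2 and Zmat3. Uninjured MRL tendons had this order with all 4 libraries, but without the one labelled replicate 4 Sesn2 (2.54) was above Trp53inp1 (2.19). The other groups departed from it in places. In injured C57 Ccng1 (33.8) was above Bax (31.6), but not without BI-181 (21.5 against 32.7). In uninjured C57 Gadd45a (15.0) was above Trp53 (13.5) and Mdm2 (11.8), and Trp53inp1 (3.67) was above Bbc3 (3.23). Without the library labelled replicate 4, Gadd45a (11.7) remained above Mdm2 (11.2) and Trp53 (10.9), now in that order, and Trp53inp1 (3.73) was below Bbc3 (3.79). In injured MRL Sesn2 (2.55) was above Bbc3 (1.73) and Trp53inp1 (1.08). Mdm2 and Trp53 change places when the longest transcript is used in place of all exons.

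The 5 genes whose log2 CPM followed Trp53 most closely over the 16 libraries were H2afx (Pearson's r = 0.95), Pgam1 (0.924), Rcn1 (0.923), Ten1 (0.919) and Serf1 (0.918), out of 15946 genes compared. Without both libraries labelled replicate 4, their values were 0.938, 0.903, 0.896, 0.898 and 0.911. Among the 10 genes, Trp53 was most like Bax (0.613, and 0.813 without those libraries), as was Mdm2 (0.5 and 0.701). Bbc3 was most like Trp53inp1 (0.75 and 0.821), a pair that shares its lowest value in BI-275. Ccng1 was most like Pmaip1 (0.673 and 0.708), a pair that shares its highest value in BI-181. Gadd45a was most like Zmat3 (0.62, and 0.221 without the libraries labelled replicate 4), as was Sesn2 (0.46 and 0.138). These correlations run over libraries that differ in strain, injury and depth, whose part in them was not tested.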

How the data were processed

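RNA-seq of 16 mouse flexor tendons was used. Per the labels, the authors processed single-end reads with Trimmomatic 0.36, STAR 2.5.2b, GRCm38.p5 and featureCounts (Subread 1.5.0p3). The deposited values are whole-number counts per gene symbol, with no normalization. The gene annotation and strand setting are not given in the sources used here. The study's methods describe pre-amplification, whereas the labels describe another kit, so counting error may understate technical error. Groups came from the labels. No replicate number is given for injured libraries, which are called by their titles.

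Counts were tested with edgeR 4.0.16 (R 4.3.3), which used TMM, its expression filter and the robust quasi-likelihood test on the libraries compared, and all 16 for the interaction. P-values were adjusted over all genes by Benjamini-Hochberg and called under 0.05. CPM used TMM sizes over 16 libraries, and log2 CPM a prior count of 2. P-values measure the spread between these tendons. Scripts were tested on simulated data. Alternatives were DESeq2 1.42.0, other scalings and filters, single libraries left out and the replicate number as a block. That number does not pair the uninjured libraries, which are different animals.

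The 10 genes were named throughout. Of each list, Cdkn1a, Bcl2 and Mdm4 were always named, as were up to 4 called genes with the largest fold changes. The members and lists were chosen with earlier results of these data known. The labels also name DESeq2 1.14.1, whose calls were not used. Cell type markers of tenocytes, epidermis, skeletal muscle, macrophages, neutrophils, lymphocytes and endothelium were checked.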

Additional observations from a re-analysis of the deposited data

Results flagged for a closer look

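Of the 40 groups of 4 libraries checked over the 10 genes, 6 held a library whose gap to its nearest neighbour took up more than 0.829 of the group's range. Chance flags about 1 in 20 groups of independent, normally distributed values. The groups here reuse the same 16 libraries, and the flags of Pmaip1 in uninjured tendons arise by construction. The 6 flags are therefore not compared with that rate. Trp53 was at 86.5 CPM in the library labelled C57 uninjured replicate 4, against 41.5 to 48.3 CPM in the other 3. This library went against its strain label and held 6.51% of its counts on epidermal markers, whose part in the value was not tested. Zmat3 was at 18.8 CPM in BI-183, against 9.49 to 10.8 CPM in the other injured C57 tendons. BI-183 had 0.235% of its counts on skeletal muscle markers, whose part was not tested. Trp53inp1 was at 30.3 CPM in C57 uninjured replicate 3, against 21.0 to 22.5 CPM. Pmaip1 stood apart in 3 groups. It was at 6.55 CPM in BI-181, the library with 7.40% of its counts on skeletal muscle markers, against 0.803 to 0.902 CPM in the other injured C57 tendons. In uninjured tendons it was at 0.387 CPM in C57 replicate 2 and at 0.237 CPM in the library labelled MRL replicate 4, with the other libraries of both groups at 0, so that any count above 0 stands apart there by construction.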

How the results depend on the processing

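Bax in injured MRL tendons was called under every alternative run. The number of the 10 genes called there was 2 with DESeq2, DESeq2's size factors, total counts, a minimum of 10 counts and without the library labelled replicate 4, and 1 with upper-quartile factors, without a filter, with all 16 libraries in 1 fit and with the injured libraries thinned to the median uninjured depth. Leaving out single libraries gave 1 to 2, beside 5.4% to 11.8% of all genes. The share of all genes called, 11.1% in the analysis as reported, was 17.2% with DESeq2, 14.1% with a minimum of 10 counts, 11.5% with thinning, 8.12% without the library labelled replicate 4, 6.83% with all 16 libraries in 1 fit, 5.35% without a filter and 10.8% to 11% under the other scalings. In the other 4 comparisons the number stayed at 0, also with the replicate block. The replicate block on the uninjured tendons called none of the 10 and none of all genes. Same-numbered libraries correlated between -0.238 and -0.0294, and 0 of 4 pairs matched best at the same number. These correlations use deviations from the group means. They cannot decide on pairing, because both libraries labelled replicate 4 go against their strain labels. The settings without BI-181 and replicate 4 together and the thinning were chosen after seeing the data.

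Signs turned only for values that were not called. Mdm2 in C57 became 0.017 (DESeq2), 0.0051 (upper-quartile), 0.011 (DESeq2's size factors), 0.11 (total counts), 0.039 (minimum of 10 counts), 0.011 (16 libraries in 1 fit), 0.050 (replicate 4 left out) and 0.069 (BI-181 also left out). With replicate 4 left out, Bbc3 became -0.16 and Zmat3 0.20 in C57 (0.35 without BI-181 too), Sesn2 0.0078 in MRL, Pmaip1 1.29 in the interaction (2.71 without BI-181 too) and Trp53 0.26 between uninjured strains. Bbc3 between uninjured strains became 0.038 with the replicate block. With single libraries left out, ranges that crossed 0 in C57 were -0.11 to 0.32 (Trp53), -0.070 to 0.10 (Mdm2), -0.24 to 0.47 (Sesn2), -0.16 to 0.31 (Bbc3) and -1.22 to 0.20 (Zmat3). In MRL they were -0.18 to 0.094 (Sesn2) and -0.26 to 0.44 (Zmat3), and in the interaction -0.54 to 0.16 (Sesn2), -6.04 to 0.89 (Pmaip1) and -0.11 to 1.31 (Zmat3). Between uninjured strains they were -0.24 to 0.20 (Trp53), -0.19 to 0.52 (Sesn2) and -0.27 to 0.19 (Bbc3), and between injured strains -0.78 to 0.11 (Ccng1) and -0.12 to 0.14 (Sesn2). The causes were not tested. Low counts limit what can be said of Pmaip1, which was at or below 3 counts in 7 of the 8 uninjured libraries.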
